A study of Rattus norvegicus with 6 samples.

Results

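Nos3 and Nos1 encode the endothelial (eNOS) and neuronal (nNOS) nitric oxide synthases, and their transcripts were followed here in penile cavernous tissue of the Norm and SHR groups. They are 2 of the 23091 Ensembl rat genes in the deposited tables, taken by their identifiers ENSRNOG00000009348 (Nos3) and ENSRNOG00000001130 (Nos1). The Norm group held 3 Wistar-Kyoto (WKY) rats with normal blood pressure and the SHR group 3 spontaneously hypertensive rats, an inbred strain whose blood pressure rises without treatment. All were described as 10 weeks old, none of these groups was described as drug-treated, and each rat gave 1 RNA-seq library. The study describes collecting cavernous tissue after erectile function was measured. That measurement used pentobarbital anaesthesia, pressure lines in the carotid artery and corpus cavernosum, and electrical stimulation of the cavernous nerve. Whether each sequenced rat went through it is not stated. WKY and SHR are separate inbred strains, so effects of strain and of blood pressure cannot be told apart.

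Nitric oxide starts and sustains erection. Nitrergic nerve endings release it first, from nNOS, and the endothelium of the cavernous sinusoids then produces it through eNOS as blood flow rises. Both enzymes make nitric oxide from L-arginine, and the gas activates soluble guanylyl cyclase in smooth muscle, where cGMP and its kinase lower calcium and relax the tissue. The study stained eNOS protein and assayed nitric oxide and cGMP in this tissue, and reported all of them lower in the SHR group. It also reported less staining of the endothelial markers VWF and CD31 in that group. The comparison below asks how the transcripts of the synthases stood in the same groups, which is a different measure from protein. Those assays used other numbers of rats than the sequencing, and whether any rat served both is not stated.

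The deposited tables list identifiers only, and the RefSeq table used here pairs none of its genes with an Ensembl identifier, so the names rest on the identifiers assigned to Nos3 and Nos1 beforehand. The length implied by each gene's count, FPKM (fragments scaled to gene length and library size) and library total was checked against them. Its median over the 6 libraries was 3878 bases for Nos3 and 4492 bases for Nos1. Both lengths are long enough to hold the coding sequence of the respective enzyme, and nNOS is the longer protein. No file gave a transcript length to set beside them. The check is weak, since 298 and 251 other genes of the 12439 with at least 10 counts in every library lay within 2% of these lengths.

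In RefSeq's GRCr8 assembly Nos3 lies on chromosome 4 and Nos1 on chromosome 12, both on the minus strand. That assembly was not named as the one behind the counts, so no position of a counted read is implied. The windows from 250 bases before to 50 bases after 1 annotated start site of each gene are printed to show how they differ there. Capitals mark the motifs searched, which were the GC box GGGCGG, the TATA box TATAAA and the cyclic AMP response element TGACGTCA, each on both strands and with overlaps counted.
Nos3, chr4:11706532-11706831, minus strand, GRCr8: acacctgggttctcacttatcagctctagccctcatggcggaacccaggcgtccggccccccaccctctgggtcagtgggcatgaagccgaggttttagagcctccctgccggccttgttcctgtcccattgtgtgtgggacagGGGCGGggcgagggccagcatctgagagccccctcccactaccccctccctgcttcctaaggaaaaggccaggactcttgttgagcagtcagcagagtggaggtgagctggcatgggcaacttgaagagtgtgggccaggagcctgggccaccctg
Nos1, chr12:44371788-44372087, minus strand, GRCr8: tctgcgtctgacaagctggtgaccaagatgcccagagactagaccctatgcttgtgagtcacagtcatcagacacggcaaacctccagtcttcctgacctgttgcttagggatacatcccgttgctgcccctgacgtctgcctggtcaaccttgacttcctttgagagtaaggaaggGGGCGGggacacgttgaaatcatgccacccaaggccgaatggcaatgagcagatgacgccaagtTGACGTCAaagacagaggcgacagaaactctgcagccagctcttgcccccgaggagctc
Each window held 1 GC box, which 33.1% of all 33469 windows of 300 bases held. The Nos1 window also held 1 cyclic AMP response element, found in 1.83% of all windows, and the Nos3 window held none. Neither window held the letters of the TATA box, which 14.2% of windows did. RefSeq lists 6 transcripts for Nos1 and 2 for Nos3. The start site of the Nos1 window lies 84534 bases inside the gene's span of 180361 bases, against 23 bases for Nos3. The Nos1 window therefore stands for 1 of several start sites. Nos1 is known for alternative first exons and for a splice form of striated muscle, and a count per gene sums all of these forms. These matches describe letters and were not tested for any role in the counts below.

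Total counts per library lay between 16608927 and 20017845. At this depth 3 counts, taken as the limit of detection, stand at 0.150 to 0.181 CPM (counts scaled to library size). That limit is on library totals, before the TMM scaling used for the CPM of each gene below. Markers of endothelium, nerve, striated muscle or other cell types were not analysed, because no identifier could be paired with a name. The label of the tissue was therefore not checked against markers. In bulk tissue, fewer cells of a type and less RNA per cell cannot be told apart, which holds for each value that follows. The labels name no batch.

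Nos3 transcripts did not differ between the groups beyond the spread between rats. Norm replicates 1, 2 and 3 had 361, 302 and 339 counts, or 22.8, 18.1 and 16.0 CPM after TMM scaling (a factor for each library that balances its composition). SHR replicates 1, 2 and 3 had 314, 462 and 280 counts, or 18.2, 24.5 and 16.2 CPM. The groups overlapped throughout: the highest library was SHR replicate 2, the next Norm replicate 1, and the lowest Norm replicate 3, close to SHR replicate 3. Nos3 averaged 19.0 ± 3.52 CPM over the Norm rats and 19.7 ± 4.32 CPM over the SHR rats (SD, n = 3 per group). In edgeR's quasi-likelihood test over 13299 genes Nos3 had a log2 fold change of SHR over Norm (log2FC) of 0.05 ± 0.20 (standard error), with an adjusted p of 0.919. The 95% interval ran from -0.40 to 0.51, which corresponds to 0.755-fold to 1.43-fold. Changes within these bounds, lower or higher, were not excluded with 3 rats per group. Permuting the group labels of log2 CPM exactly (two-sided) gave a p of 0.7, where the smallest that 3 rats against 3 allow is 0.1.

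The spread of Nos3 within a group was larger than counting error. Exact 95% Poisson intervals, which cover counting error only, were 22.3 to 26.9 CPM for SHR replicate 2 and 16.2 to 20.3 CPM for SHR replicate 1, without overlap. The same held in the Norm group, with 20.5 to 25.3 CPM in replicate 1 and 14.3 to 17.8 CPM in replicate 3. The coefficient of variation between rats was 18.6% in the Norm group and 22.0% in the SHR group, where counting alone gives 5.47% and 5.33%. The biological coefficient of variation that edgeR assigned to Nos3 was 0.194, near the median of 0.181 over all genes tested. That of Nos1 was higher, at 0.368.

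Nos1 had more counts in each SHR rat than in any Norm rat, and the difference did not pass the test after adjustment. Norm replicates 1, 2 and 3 had 19, 17 and 12 counts, or 1.20, 1.02 and 0.565 CPM. SHR replicates 1, 2 and 3 had 71, 29 and 36 counts, or 4.12, 1.54 and 2.09 CPM. All 6 values lay above the limit of 3 counts, the lowest, in Norm replicate 3, by 4 times. The groups did not overlap, with SHR replicate 2 next to Norm replicate 1 at the border and SHR replicate 1 far above the rest. Of all genes tested, 13.4% were likewise higher in every SHR rat than in every Norm rat, so that the lack of overlap was common in these libraries.

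Nos1 averaged 0.929 ± 0.328 CPM over the Norm rats and 2.58 ± 1.36 CPM over the SHR rats (SD, n = 3 per group). Its log2FC was 1.48 ± 0.47 (standard error), and edgeR's quasi-likelihood test gave an adjusted p of 0.122. This is 2.80-fold, with a 95% interval from 1.32-fold to 5.92-fold that takes no account of the number of genes tested. The unadjusted p from edgeR was 0.0129, and 10.5% of genes had a smaller one, while 10.7% had an unadjusted p under 0.05 and were higher in the SHR group. Past the adjusted threshold of 0.05 stood 4.06% of genes, 2.31% as higher in the SHR group, and neither Nos1 nor Nos3 was among them. A log2FC larger in size than that of Nos1 was found in 3.68% of genes. The exact permutation of group labels gave 0.1, the smallest p it allows.

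**Figure D1:**
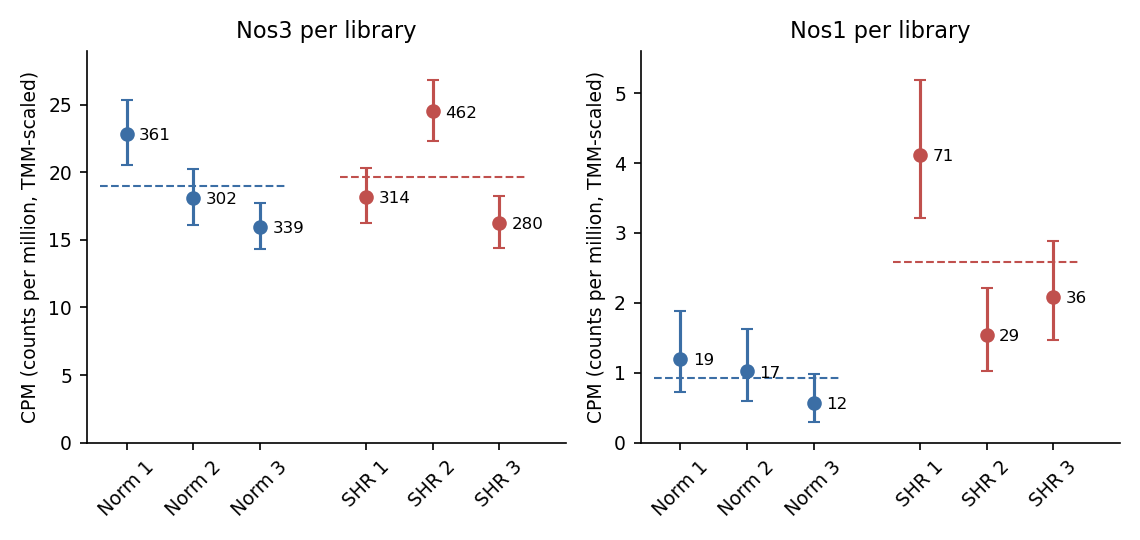
CPM of Nos3 (left) and Nos1 (right) in each of the 6 libraries, with exact 95% Poisson intervals as bars, the raw count beside each point and the group mean as a dashed line. The Nos3 values of the groups interleave between 16.0 and 24.5 CPM, whereas the 3 SHR values of Nos1, from 1.54 to 4.12 CPM, lie above the 3 Norm values, from 0.565 to 1.20 CPM.

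SHR replicate 1 carried much of the Nos1 difference. Its interval, 3.22 to 5.19 CPM, did not overlap those of SHR replicate 2, 1.03 to 2.21 CPM, or SHR replicate 3, 1.46 to 2.89 CPM. The interval of SHR replicate 2 overlapped that of Norm replicate 1, which was 0.724 to 1.88 CPM. Without SHR replicate 1 the log2FC was 0.98, with a 95% interval from -0.12 to 2.07 and an adjusted p of 0.404 in edgeR. Without Norm replicate 3, the lowest library, it was 1.21, with an interval from -0.03 to 2.44. The log2FC stayed positive with each rat left out in turn, from 0.98 to 1.75. Counting alone gives a coefficient of variation of 25.0% at the Norm counts and 14.9% at the SHR counts, and the observed values were 35.3% and 52.6%. The Norm libraries held 48 Nos1 counts in all and the SHR libraries 136. With counting error only, the ratio of these sums per scaled library was 2.85 (exact 95% interval 2.04 to 4.05), narrower than the interval that includes the spread between rats.

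**Figure D2:**
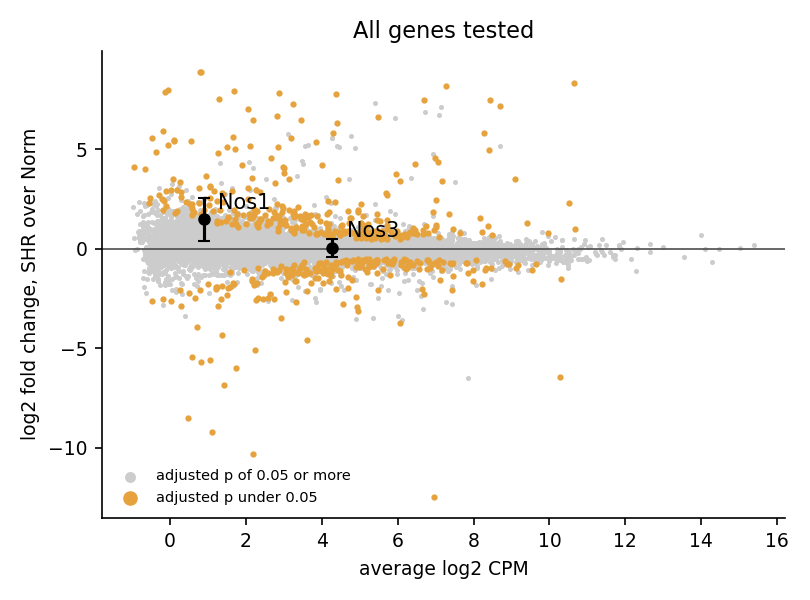
Log2FC (SHR over Norm) against average log2 CPM for the 13299 genes tested, with genes past an adjusted p of 0.05 in orange and 95% intervals drawn on Nos3 and Nos1 alone. Nos3 lies at 0.05 in the middle of the cloud, and Nos1 at 1.48 on its upper side among genes of low abundance.

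Per unit of gene length, the endothelial transcript was the more abundant in all 6 libraries. FPKM values of Nos3 were 5.36, 4.56 and 4.28 in Norm replicates 1, 2 and 3 and 4.88, 6.47 and 4.25 in SHR replicates 1, 2 and 3. Those of Nos1 were 0.248, 0.214 and 0.134 in the Norm rats and 0.952, 0.350 and 0.468 in the SHR rats. Nos3 stood near the middle of the genes with an FPKM above 0, above 43.3% to 53.5% of them, whereas Nos1 stood above 11.3% to 22.6%. The cell bodies of the nitrergic nerves of the penis lie in the pelvic ganglia, outside the tissue sampled, and the enzyme itself was not measured in these libraries. Whether this bears on the level of Nos1 was not tested.

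The FPKM ratio of Nos3 to Nos1 was 21.6, 21.3 and 32.0 in Norm replicates 1, 2 and 3. In SHR replicates 1, 2 and 3 it was 5.13, 18.5 and 9.07. Each SHR ratio was below each Norm ratio, with SHR replicate 2 again nearest to the Norm rats. The ratio averaged 25.0 ± 6.07 over the Norm rats and 10.9 ± 6.86 over the SHR rats (SD, n = 3 per group), a difference of -1.37 on the log2 scale (p = 0.1, exact two-sided permutation test, the smallest it allows). The test of this ratio therefore cannot pass 0.05, and the different results of the 2 genes do not show that their changes differed. Nos1 made up 3.03% to 4.48% of the summed FPKM of both genes in the Norm rats and 5.13% to 16.3% in the SHR rats. That sum averaged 4.93 ± 0.608 FPKM over the Norm rats and 5.79 ± 1.05 FPKM over the SHR rats (SD, n = 3 per group), and its groups overlapped (p = 0.3, exact two-sided permutation test). The inducible synthase Nos2 could not be placed among the identifiers, so the sum does not cover it.

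**Figure D3:**
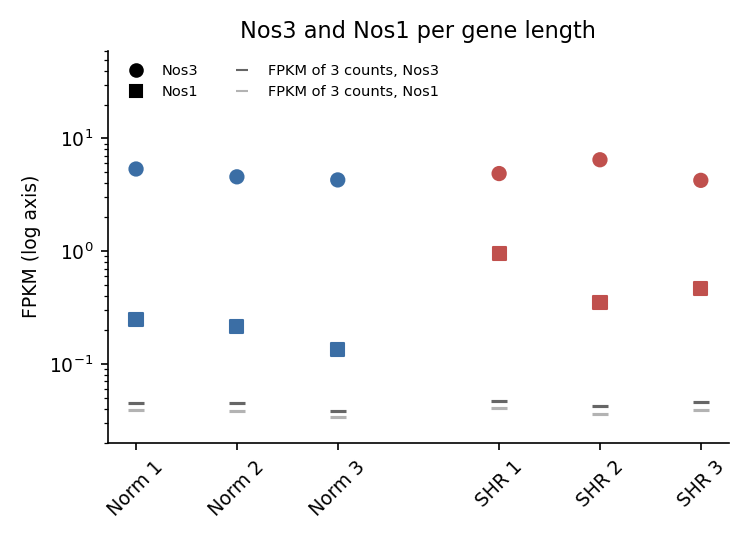
FPKM on a log axis of Nos3 (circles) and Nos1 (squares) in the 3 Norm libraries (blue) and the 3 SHR libraries (red), with short grey lines at the FPKM of 3 counts of each gene. Nos3 stays between 4.25 and 6.47 FPKM, and the gap to Nos1 is narrowest in SHR replicate 1, where the ratio is 5.13.

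Across all rats the 2 transcripts showed little common order. Pearson's correlation of their log2 CPM over the 6 libraries was 0.08, given as a description of libraries that share group and depth. In the Norm group both were highest in replicate 1 and lowest in replicate 3. The Poisson intervals of Nos1 overlapped among all Norm rats, from 0.724 to 1.88 CPM in replicate 1 and from 0.292 to 0.987 CPM in replicate 3. The order of Nos1 there was therefore not resolved beyond counting error. In the SHR group replicate 2 was highest for Nos3 and lowest for Nos1, and replicate 1 was above replicate 3 for both. The gene most like Nos3 over the 6 libraries, among genes with a mean of at least 5 CPM, was ENSRNOG00000001774, with a correlation of 0.990. It moved only between 74.6 and 87.1 CPM, so the likeness is in the shape of the differences between libraries and not in their size. The gene most like Nos1 was ENSRNOG00000063347, with a correlation of 0.993 and values of 4.00 to 5.76 CPM in the Norm rats and 6.15 to 9.04 CPM in the SHR rats. A correlation above 0.95 was reached by 12 genes with Nos3 and by 20 with Nos1 among the 10579 and 10580 genes compared. These are 0.113% and 0.189% of them. With only 6 libraries and this many genes, correlations of this size can arise between unrelated genes. Whether these exceed that was not tested, so the genes are not shown to vary together with Nos3 or Nos1.

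**Figure D4:**
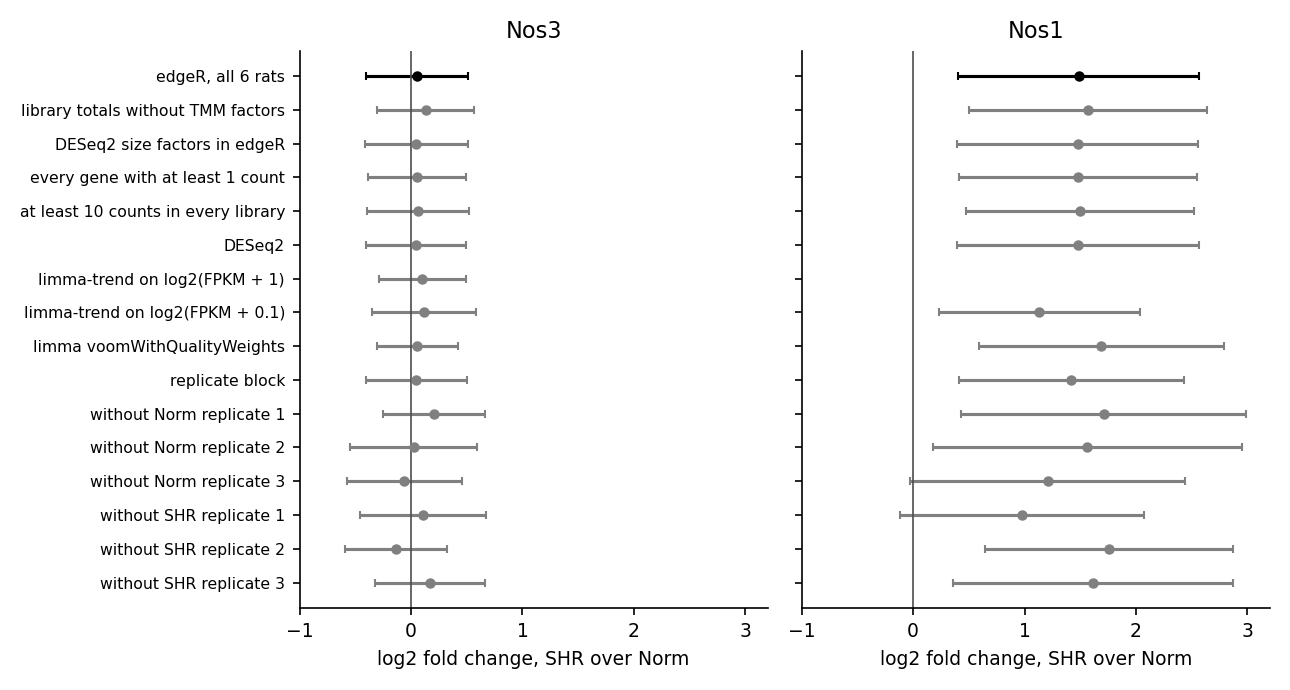
Log2FC (SHR over Norm) with its 95% interval for Nos3 (left) and Nos1 (right) under each way of processing, with the edgeR test on all 6 rats in black. Every Nos3 interval includes 0, and every Nos1 estimate is positive, from 0.98 to 1.75, with intervals that reach below 0 without Norm replicate 3 and without SHR replicate 1.

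Reads from neighbouring genes could bear on both counts. In the RefSeq table the span of Nos3 overlaps that of Atg9b, an autophagy gene on the opposite strand, and that of Nos1 overlaps 2 long noncoding RNA genes. Whether the counting used strand is not given in the sources used here, so reads from such partners cannot be told apart from those of Nos3 or Nos1.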

How the data were processed

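Penile cavernous tissue of 3 Norm (WKY) and 3 SHR rats was sequenced after TRIzol extraction, with TruSeq libraries on an Illumina platform. The study's main methods name the outer urethra membrane of this tissue as the source of RNA. Its supplementary methods instead say that this membrane was taken off first, so the exact part sequenced is unclear. The authors deposited whole-number counts per gene and FPKM values for each library. The submitters' processing notes name fastp 0.18.0, Bowtie2 2.2.8, HISAT2 2.1.0, StringTie 1.3 and RSEM. The genome build, annotation and strand setting are not given in the sources used here. RSEM assigns shared reads by estimation, and 31 values combined an FPKM above 0 with no count. Rounded estimates are therefore possible, reads of similar genes may be split, and the counts entered the tests as deposited.

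The test was that of edgeR 4.0.16 under R 4.3.3 (TMM, filterByExpr, glmQLFit, glmQLFTest, Benjamini-Hochberg adjustment over all genes that passed the filter). Standard errors came from the F statistic. CPM was scaled by TMM-adjusted library totals, except for the detection limit and where library totals are named. Correlations used log2 CPM with a prior count of 2. Alternatives used DESeq2 1.42.0, limma 3.58.1, other filters, scalings and FPKM pseudocounts, a replicate block and each rat left out. The scripts were tested on simulated data. Per the labels, libraries of a group are separate samples.

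The 2 genes, the pathway and cell type lists, the tests and the motifs were chosen with earlier results of these data known. By the rule for named genes, Nos3 and Nos1 and, unnamed, the gene most like each were reported. The lists of nitric oxide and cGMP genes and of cell type markers could not be used, since 0 of 47357 RefSeq entries carried an Ensembl identifier.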

Additional observations from a re-analysis of the deposited data

How the results depend on the processing

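Neither gene passed an adjusted p of 0.05 under any alternative run. For Nos1 the 14 alternatives kept a positive log2FC, with adjusted p between 0.0593 (limma's voomWithQualityWeights) and 0.404 (edgeR without SHR replicate 1). DESeq2 gave Nos1 a log2FC of 1.48 and an adjusted p of 0.0763. Nos1 was under the filter of limma-trend on log2(FPKM + 1). For Nos3 the log2FC was between 0.05 and 0.13 in the 9 alternatives on all rats. With each rat left out it ran from -0.14 (without SHR replicate 2) to 0.21 (without Norm replicate 1), and it was also negative, -0.06, without Norm replicate 3. Library totals without TMM factors, added after the data were seen, moved the median log2FC of all genes from -0.005 to 0.06 and gave 0.13 for Nos3 and 1.57 for Nos1. The log2 difference of the Nos3 to Nos1 ratio was -1.01 with 0.1 added to each FPKM and ran from -1.85 to -0.92 with each rat left out.

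The number of genes past the test, 540 (307 higher and 233 lower), was 1256 (660 higher, 596 lower) with DESeq2 and 1362 (686 higher, 676 lower) with voomWithQualityWeights, and the cause was not tested. With each rat left out it ran from 161 to 632, with 109 to 419 higher and 52 to 213 lower. It was 161 without SHR replicate 1, 191 without Norm replicate 2, 214 without Norm replicate 3 and 225 without SHR replicate 3, fits that by construction have fewer rats. With the replicate block 294 genes passed (176 higher, 118 lower), and log2FC was 0.05 for Nos3 and 1.42 for Nos1 (adjusted p = 0.155 in edgeR). Same-numbered rats had deviations from their group mean that correlated at -0.04, -0.15 and -0.12 across genes. These values give no sign that the numbers pair the rats, and a shared batch was not tested.

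A ratio by reference transcript length, the marker lists, the pathway lists and Nos3 relative to endothelial markers were not run, for want of lengths and names. Counting error weighs most on Nos1, with 12 to 71 counts per library against 280 to 462 for Nos3.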

Other observations

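The length implied by the Nos3 count and FPKM was not the same in all libraries. It was 3953 bases in Norm replicates 1 and 3, 3749 bases in Norm replicate 2 and 3870 to 3881 bases in the SHR rats, a range of 5.25% of the median, where rounding of the deposited values allows at most 0.381%. Among the 7553 genes whose lowest library held 200 counts or more, the range was over 2% in 29.1%, with a median of 0.447%. For Nos1 the range was 1.21%, within the 9.08% that rounding allows at its low counts. The group means of the implied Nos3 length were 3885 bases in the Norm group and 3875 bases in the SHR group. The ratio of SHR to Norm means of Nos3 was 1.04 in TMM-scaled CPM, 1.09 in CPM on library totals and 1.10 in FPKM, and the groups overlapped in all 3 units.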
